A study of Mus musculus with 4 samples.

Results

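Abcg2 and 9 related transporter genes, Abcb1a, Abcb1b, Abcc1, Abcc2, Abcc3, Abcc4, Abcc5, Abca1 and Abcg1, were followed in MC38 cells with and without Mgat5. A gene was taken from the probe set whose platform annotation carries its symbol. All 10 genes had 1 such probe set each, among 19505 named genes and 22206 probe sets. The genes were picked with earlier results of these arrays known, Abcg2 because its signal was high in both knockout clones. Their differences between knockout and control are therefore a description and carry no test.

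MC38 is a mouse colon adenocarcinoma line, and Mgat5 encodes a Golgi glycosyltransferase that builds branched N-glycans. Controls were the WT cells, which the labels name as the control condition, and the empty vector cells (MOCK). The knockout group held KO T5 clone 1 and KO T5 clone 2, both made with CRISPR-Cas9. Each was read on 1 Clariom S mouse array, so a group had n = 2. No treatment, time or batch is given in the sources used here, and a cell tag names the knockout on all 4 samples, so groups followed the titles. Only the knockout arrays are titled as clones, so cloning and loss of Mgat5 cannot be told apart, and nothing says that any array came from a separate culture. The p-values, SDs and SEs below therefore measure only the spread between these arrays. That spread mixes MOCK with WT and clone 1 with clone 2, and part of it may be technical.

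Mgat5 itself read 8.19 (MOCK), 8.27 (WT), 7.46 (clone 1) and 7.57 (clone 2), as log2 signal; the position of its probes relative to the edited site was not used here, so the edit itself is not checked by it. The arrays differed in spread: their upper quartile over all probe sets lay between 8.87 (WT) and 9.60 (clone 2), and the median difference between knockout and control over all probe sets was 0.18 log2 units as deposited and -0.02 once the arrays were quantile-normalized. A difference was above 0 for 65.1% of probe sets as deposited and for 48.3% after quantile normalization. For that reason values after quantile normalization, marked q, stand beside the main differences, and counts of higher genes are to be read against these shares. The upper quartile (75th percentile) of 5222 negative control features, between 6.29 and 6.56, served as the line above which a gene was taken to have signal. None of the 11 colon epithelial markers, Epcam, Cdh1 and Cdx2 among them, had signal on any array, a count of 0, and their summed level lay between 7.91 and 7.95 in the controls and 7.91 and 7.97 in the clones. Of 6 mesenchymal markers 4 had signal on every array, and the summed level of the list, carried by Vim (16.53 to 17.43), was 16.8 to 17.5 in the controls and 17.2 to 17.3 in the clones. Dcn, the proteoglycan decorin, had both clones below both controls, at 12.95 (MOCK), 13.61 (WT), 8.94 (clone 1) and 11.18 (clone 2), a difference of -3.22 (q -3.72, limma adjusted p = 0.121). Col3a1 also had both clones below both controls (-0.83, q -1.29), while Pdgfrb differed by 0.42 (q -0.04). Col1a2 differed by 0.85 (q 0.71), with signal in clone 1 alone (6.99). Col1a1, without signal on any array, differed by 0.58 (q 0.47). The part of these markers in the results below was not tested. Ptprc, the general leukocyte marker, stayed between 4.32 and 4.77, and the endothelial and macrophage markers were without signal on all arrays. Of 4 T cell markers 3 lacked signal throughout, while Cd4 reached 6.76 in clone 2.

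ABC transporters are membrane proteins that use ATP to move a substrate across a membrane. ABCG2 (breast cancer resistance protein) and the P-glycoproteins, which mice make from the gene pair Abcb1a and Abcb1b, expel many anticancer drugs and set their uptake across the gut and the blood-brain barrier. The ABCC proteins, also named MRPs, export organic anions such as glutathione and glucuronide conjugates, and ABCA1 and ABCG1 hand cholesterol and phospholipid to lipoproteins. ABCG2, P-glycoprotein and several ABCC proteins carry N-glycans.

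Abcg2 had the widest gap of the 10. It read 6.64 in MOCK and 6.69 in WT, against 9.07 in clone 1 and 9.37 in clone 2. The clones did not overlap with the controls: the lower clone stood 2.37 log2 units above the higher control, while the controls lay 0.06 apart and the clones 0.30. Group means were 6.67 ± 0.04 and 9.22 ± 0.21 (SD, n = 2), a difference of 2.55 log2 units (SE 0.37) or 5.87-fold. After quantile normalization the arrays read 6.69, 6.99, 8.97 and 9.05 in the same order, a difference of 2.16 (SE 0.30) or 4.48-fold. Both controls lay just above the negative control line, which was 6.56 in MOCK and 6.29 in WT, so the control level is close to background.

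Across the array the difference of Abcg2 ranked 67 of 22206 probe sets as deposited and 74 after quantile normalization. A gap of at least 2 log2 units with both clones above both controls was found for 33 probe sets, or 0.149%, Abcg2 among them. After quantile normalization 17 probe sets, or 0.0766%, reached that gap, and Abcg2, at 1.97, did not. In the limma fit over all probe sets 0 of the 10 genes were called at a Benjamini-Hochberg adjusted p under 0.05, where 0.0405% of probe sets were called, 0.036% as higher and 0.0045% as lower in the knockout. The count was also 0 after quantile normalization (0.0045% of probe sets called) and with centred arrays (0.036%). At an unadjusted p under 0.05 the count was 1 of 10, which was Abcg2, beside 8.75% of probe sets. As this contrast chose the genes, nothing is read from these ranks, shares and counts, nor from the counts under other settings that follow. Abcg2 was the 1 gene called with a filter at the median (1.77% of probe sets called) or the 25th percentile (0.751%) of mean signal, with eBayes set to trend and robust (1.53%), without clone 1 (2.38%) and without clone 2 (0.671%). Without MOCK (0.0045%) and without WT (0% of probe sets) the count was 0.

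**Figure D1:**
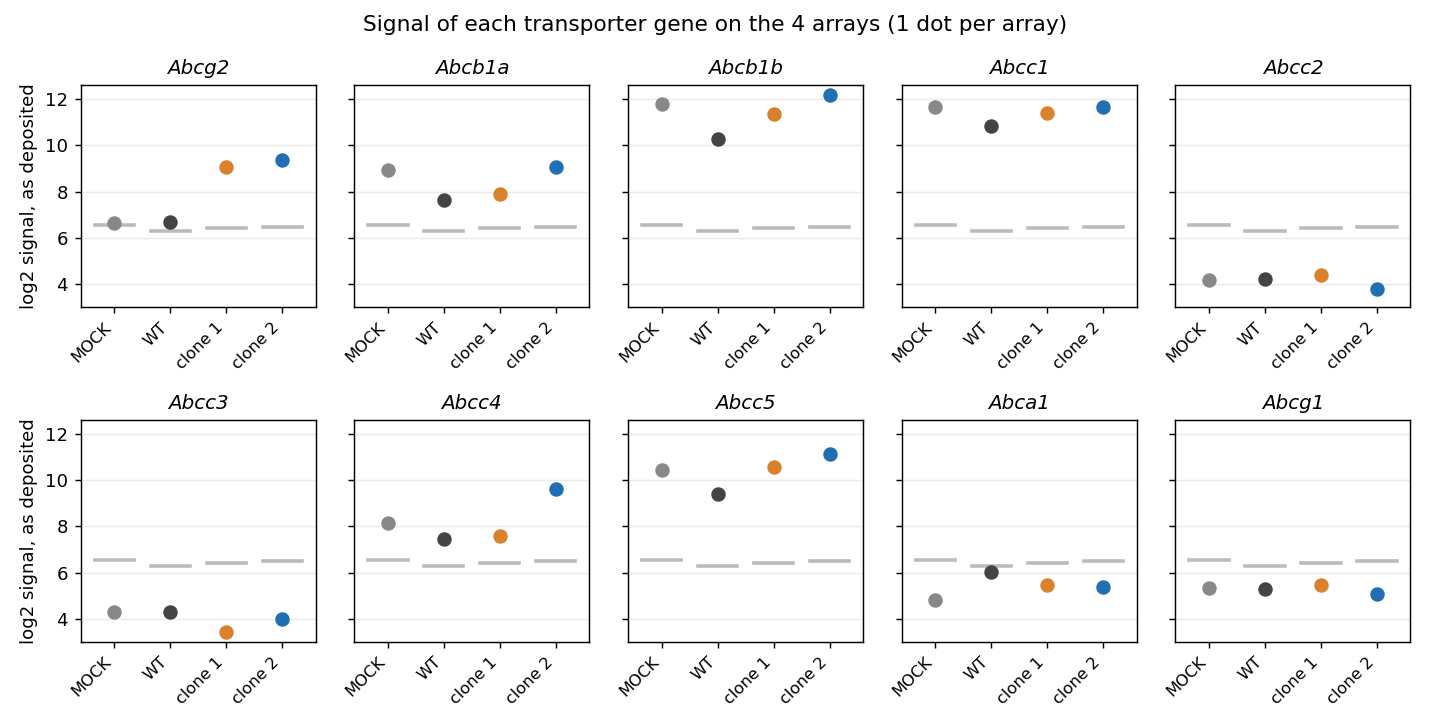
Log2 signal as deposited for each of the 10 genes on the 4 arrays, 1 dot per array, with grey bars at the 75th percentile of the negative controls of that array. Abcg2 separates the clones (9.07 and 9.37) from the controls (6.64 and 6.69), while Abcc2, Abcc3, Abca1 and Abcg1 lie under the bars on every array.

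The start regions of Abcg2 are shown because the gene has several in RefSeq and the array gives 1 summed signal for it, with no level per start. RefSeq (GRCm38.p6) holds 3 windows for Abcg2, each of 300 bases, 250 before and 50 after a start, all on the plus strand of chromosome 6. Capitals mark GGGCGG (the GC box) and GCGTG (the core that the aryl hydrocarbon receptor binds), read on both strands, so that CCGCCC and CACGC are marked too. TGACNNNGC, the core bound by NRF2, was searched as well.
Abcg2 window 1, chr6:58584283-58584582, plus strand: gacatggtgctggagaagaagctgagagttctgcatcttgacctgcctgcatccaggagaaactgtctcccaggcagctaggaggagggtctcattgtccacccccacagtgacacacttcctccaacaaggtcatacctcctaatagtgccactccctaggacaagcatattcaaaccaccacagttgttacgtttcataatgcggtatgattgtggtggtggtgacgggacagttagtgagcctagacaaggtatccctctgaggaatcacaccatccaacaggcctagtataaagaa
Abcg2 window 2, chr6:58596422-58596721, plus strand: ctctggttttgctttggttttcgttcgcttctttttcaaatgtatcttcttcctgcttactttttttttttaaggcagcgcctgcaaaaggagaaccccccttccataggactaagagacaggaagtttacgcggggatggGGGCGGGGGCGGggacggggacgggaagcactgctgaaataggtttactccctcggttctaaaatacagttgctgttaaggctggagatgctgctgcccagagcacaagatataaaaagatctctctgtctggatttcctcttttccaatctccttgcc
Abcg2 window 3, chr6:58640296-58640595, plus strand: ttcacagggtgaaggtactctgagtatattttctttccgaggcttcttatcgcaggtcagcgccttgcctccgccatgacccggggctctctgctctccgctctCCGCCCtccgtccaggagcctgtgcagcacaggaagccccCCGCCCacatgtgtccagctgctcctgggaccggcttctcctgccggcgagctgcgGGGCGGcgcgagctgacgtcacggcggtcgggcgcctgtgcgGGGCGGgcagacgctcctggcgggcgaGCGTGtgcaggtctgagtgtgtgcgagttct
The third window was rich in G and C (67.0%, above 85.6% of all windows) with 28 CpG, where window 1 had 3 CpG and window 2 had 48.0% and 10 CpG. It held 4 GC boxes and 1 GCGTG, the latter starting at base 20 after the start. Window 2 held 2 GC boxes directly next to each other, starting at -109 and -103, and window 1 held none of the motifs. None of the 3 held TGACNNNGC, and no motifs overlapped. Over all 32851 windows in the table, 35.7% hold GGGCGG, 32.4% GCGTG and 12.4% TGACNNNGC.

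The genes whose pattern over the 4 arrays lay closest to that of Abcg2 were ranked by the Euclidean distance between profiles, each centred on its own mean, over 18450 named genes. The distances of the nearest 8 ran from 0.36 to 0.64 log2 units. Cdkn1a, the cell cycle inhibitor p21, came first, with signals of 10.52 (MOCK), 10.09 (WT), 12.57 (clone 1) and 12.99 (clone 2). It was also first after quantile normalization. Next were Rgs2, a regulator of G protein signalling, and Akr1c13, an aldo-keto reductase, whose signal of 3.94 and 4.55 in MOCK and WT lay under the negative controls' median before 6.55 and 6.66 in the clones.

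Tdrd7, a Tudor domain protein, read 6.37, 6.29, 8.23 and 8.62 in the same array order, and Jag1, a Notch ligand, 7.92, 7.41, 9.69 and 10.09. Tcn2, which carries vitamin B12 to cells, Slc7a2, a transporter of cationic amino acids, and Tnfaip6, a secreted hyaluronan-binding protein, completed the 8. In each, both clones lay above both controls, which the measure of likeness nearly requires, and Tcn2 had no signal above the negative control line on any array. Pearson's r to Abcg2 over the 4 arrays ran from 0.97 for Tnfaip6 to 0.998 for Tdrd7, a description over points that share the same arrays. Of the 8 genes 6 stayed among the nearest 8 after quantile normalization, with Slc7a2 moving to rank 9 and Tnfaip6 to rank 16.

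**Figure D2:**
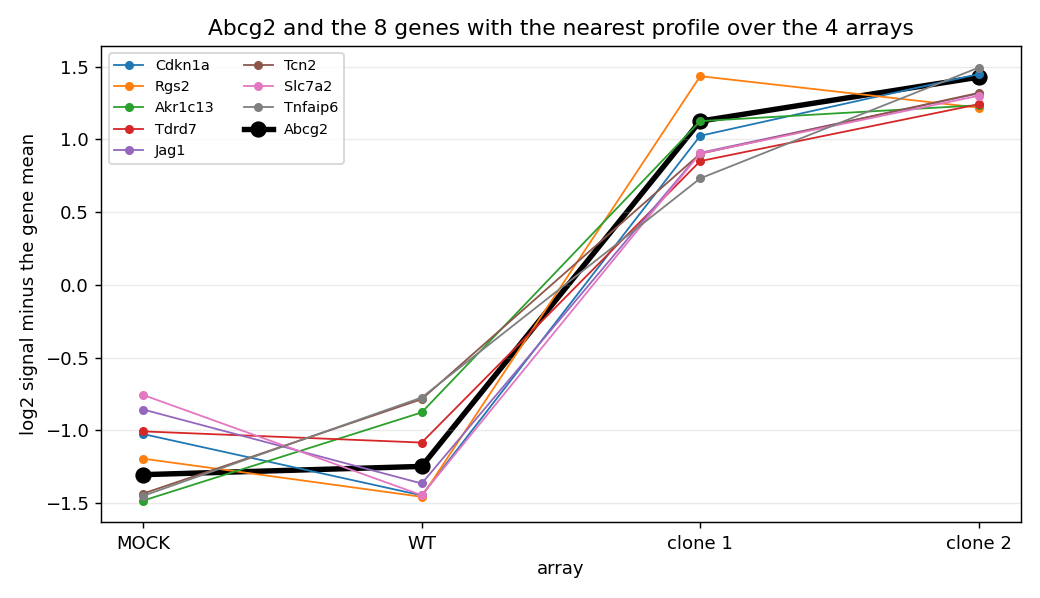
Log2 signal minus the gene's mean over the 4 arrays for Abcg2 (thick black) and the 8 genes nearest to it, with lines that only join the dots of a gene. All 9 profiles are low in MOCK and WT and high in both clones, at distances of 0.36 (Cdkn1a) to 0.64 (Tnfaip6) from Abcg2.

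The P-glycoprotein genes did not separate the groups. Abcb1a read 8.92 (MOCK), 7.66 (WT), 7.89 (clone 1) and 9.08 (clone 2), so that MOCK and clone 2 were high and WT and clone 1 low. Abcb1b read 11.78, 10.26, 11.35 and 12.17 in the same order, with WT lowest and clone 2 highest. The controls alone differed by 1.26 log2 units in Abcb1a and 1.52 in Abcb1b, more than the group differences of 0.20 (SE 0.53) and 0.74 (SE 0.53). After quantile normalization the group difference of Abcb1a was -0.20 and that of Abcb1b 0.33, and the controls still differed by 0.94 and 0.98. MOCK exceeded WT by at least 1 log2 unit in 3 of the 10 genes, beside 8.79% of all probe sets, and in 0 after quantile normalization, beside 1.85%.

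Clone 2 stood above clone 1 by 1.19 log2 units in Abcb1a and by 0.82 in Abcb1b, and by 0.98 and 0.64 after quantile normalization. These genes lie side by side on chromosome 5, and of their measured neighbours with signal, 10 on each side, the median difference between the clones ran the other way, at -0.50, with each of the pair counted among the neighbours of the other. Abcb4, the phospholipid exporter next to them, had no signal on any array, between 3.18 and 3.46. Rundc3b, on the other side, read 8.36 (MOCK), 7.32 (WT), 8.02 (clone 1) and 7.14 (clone 2). The coding sequences of this pair are close copies, and without probe sequences their signals cannot be told apart with certainty.

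The start windows of the pair are shown because they allow the starts of these close copies to be set side by side. Both are on the plus strand, in RefSeq's 300-base windows, with the same motifs in capitals and TGACNNNGC marked as well.
Abcb1a, chr5:8566841-8567140, plus strand: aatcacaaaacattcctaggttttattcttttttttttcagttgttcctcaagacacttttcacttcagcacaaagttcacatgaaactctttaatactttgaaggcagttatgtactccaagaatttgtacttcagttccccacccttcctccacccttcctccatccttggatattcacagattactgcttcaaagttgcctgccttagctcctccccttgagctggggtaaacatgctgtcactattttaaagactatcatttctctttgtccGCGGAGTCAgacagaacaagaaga
Abcb1b, chr5:8797897-8798196, plus strand: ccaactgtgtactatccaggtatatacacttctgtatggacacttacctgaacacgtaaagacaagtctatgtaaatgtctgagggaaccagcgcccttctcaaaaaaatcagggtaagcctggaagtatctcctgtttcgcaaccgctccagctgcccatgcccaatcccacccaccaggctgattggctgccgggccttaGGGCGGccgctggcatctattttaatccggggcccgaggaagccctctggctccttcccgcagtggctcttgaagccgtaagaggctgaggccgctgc
A global alignment gave 45.7% identity over 357 columns, within the 43.3% to 45.7% found between the 3 windows of Abcg2. Abcb1a had 40.3% G and C and 2 CpG, and Abcb1b 12 CpG, with more G and C than 56.6% of all windows. Abcb1b held 1 GC box and Abcb1a none, while Abcb1a held 1 TGACNNNGC. No motifs overlapped.

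Among the conjugate exporters, Abcc1, Abcc4 and Abcc5 had signal on all 4 arrays and Abcc2 and Abcc3 on none. Abcc5, an exporter of cyclic nucleotides and nucleotide analogues, read 10.43 (MOCK), 9.39 (WT), 10.57 (clone 1) and 11.13 (clone 2). Both clones were above both controls, but clone 1 by only 0.15 over MOCK, while the controls lay 1.04 apart. Group means were 9.91 ± 0.73 and 10.85 ± 0.39 (SD, n = 2), a difference of 0.94 log2 units (SE 0.45) or 0.55 after quantile normalization (SE 0.34). Abcg2 and Abcc5 were thus the 2 of 10 genes with both clones above both controls, where 27.8% of all probe sets had that order. After quantile normalization the count was again 2, beside 19.2%.

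Abcc1 (MRP1), the exporter of glutathione conjugates and leukotriene C4, read 11.64 (MOCK), 10.81 (WT), 11.38 (clone 1) and 11.67 (clone 2). The groups overlapped on both scales. As deposited, WT alone was low and MOCK and clone 2 were level. The difference of 0.29 (SE 0.42) became -0.14 after quantile normalization, where clone 1 was lowest (11.25, beside 11.32 in WT). Abcc2, the apical exporter of bilirubin glucuronides in liver and gut, stayed between 3.78 and 4.41. Abcc3, its basolateral counterpart, read 4.30 (MOCK), 4.31 (WT), 3.45 (clone 1) and 4.02 (clone 2). The clones of Abcc3 were below the controls, as in 11.7% of all probe sets, but all 4 values lay under the median of the negative controls, so no fold is given.

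Abcc4 (MRP4), which exports cyclic nucleotides and prostaglandins, set clone 2 apart. It read 8.14 (MOCK), 7.45 (WT), 7.59 (clone 1) and 9.62 (clone 2). As deposited, clone 1 lay between the controls and clone 2 above both. After quantile normalization the arrays read 8.18, 7.80, 7.48 and 9.31 in the same order, with clone 1 below both controls. Clone 2 was 4.09-fold above clone 1, or 2.03 log2 units, and 1.83 after quantile normalization. Single arrays allow no test. A clone 2 signal at least 1 log2 unit above clone 1 was seen for 8.6% of all probe sets, and for 2 of the 10 genes, Abcc4 and Abcb1a. After quantile normalization it was seen for 5.54% of probe sets and for Abcc4 alone. Against the mean of the controls, clone 2 was at least 1 log2 unit higher in 4 of the 10 genes (11.8% of probe sets) and clone 1 in 1 (6.31%). After quantile normalization these counts were 2 (5.41%) and 1 (3.94%).

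The genes next to Abcc4 on chromosome 14 showed the same split. Among the 10 nearest measured genes on each side, 12 of 20 had signal on at least 1 array, and 11 of these 12 were at least 1 log2 unit higher in clone 2 than in clone 1. Over all probe sets chosen by the same signal filter the share was 11.5%, or 7.96% after quantile normalization. The following 4 were chosen as examples after their values were seen. Dzip1, a zinc finger protein of the primary cilium, read 8.08 (MOCK), 7.62 (WT), 6.73 (clone 1) and 9.37 (clone 2). Mbnl2, a splicing regulator, read 12.96, 12.20, 11.04 and 14.44, and Ipo5, a nuclear import receptor, 13.18, 12.04, 11.56 and 13.65. Uggt2, a glucosyltransferase of glycoprotein folding control, read 6.72, 5.99, 5.53 and 7.73. In each of these, clone 1 was the lowest array and clone 2 the highest.

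For Abcc4 itself clone 1 lay between the controls as deposited and below both after quantile normalization. A longer stretch, chosen after its values were seen, ran from Mzt1 to Itgbl1, the last named gene with signal on that chromosome. Of its 40 genes with signal other than Abcc4, 33 were at least 1 log2 unit higher in clone 2, against 31 of the 264 before Mzt1. The median difference between the clones was 2.02 log2 units in the stretch and 0.20 before it, or 1.79 and 0.05 after quantile normalization. Clone 1 was below both controls for 31 of the 40, against 18 of the 264 before Mzt1. Clone 2 was above both controls for 37 of the 40, and for 225 of the 264 before Mzt1 as well. Their median differences from the controls were -0.80 in clone 1 and 1.22 in clone 2, and -1.06 and 0.71 after quantile normalization. Before Mzt1 those medians were 0.59 and 0.82, or 0.26 and 0.29 after quantile normalization.

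**Figure D3:**
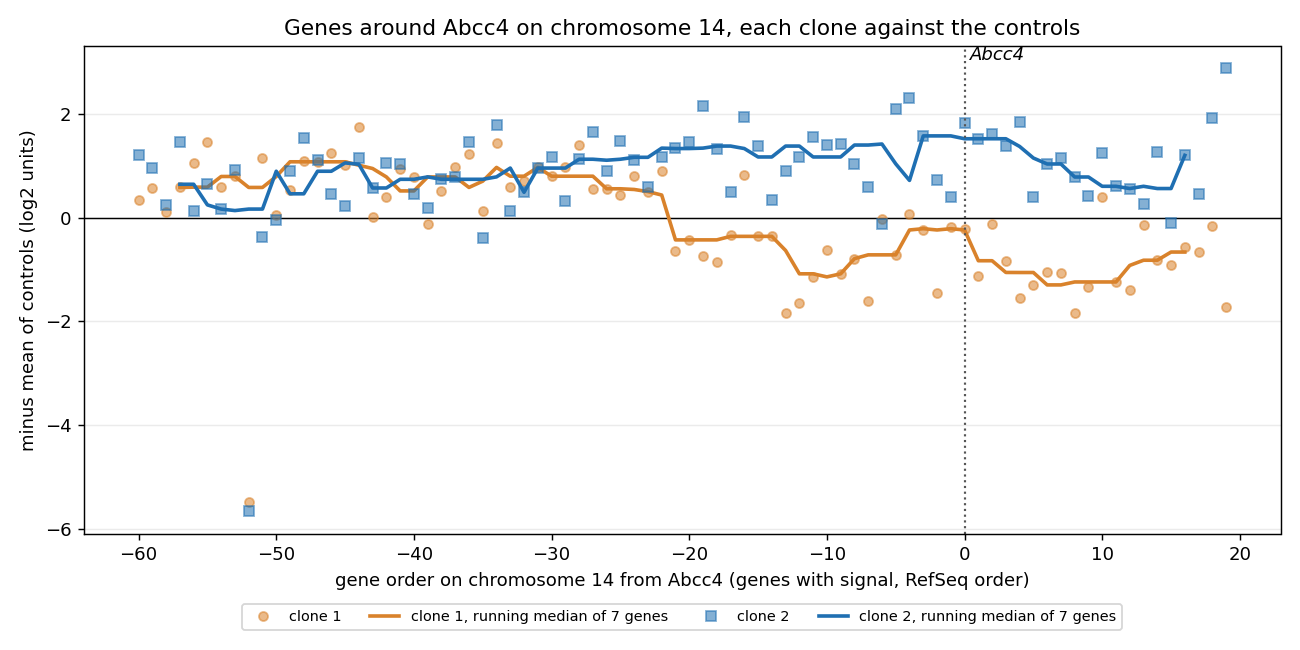
Difference from the mean of the controls (log2 units) for genes with signal on chromosome 14, in RefSeq order from 60 genes before Abcc4 to the last gene; circles are clone 1, squares clone 2, and lines are running medians of 7 genes. The clones run together on the left and part at Mzt1, 21 genes before Abcc4; the lone pair of points near the bottom is Gfra2.

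The cholesterol exporters were at background. Abca1 read 4.82 (MOCK), 6.02 (WT), 5.48 (clone 1) and 5.39 (clone 2), with the clones between the controls and WT highest. Abcg1 stayed between 5.07 and 5.46. Neither had signal above the negative control line on any array, so no fold is given. Abca1 lies in a part of chromosome 4 where 12 of the 20 nearest genes with signal had both clones above both controls, beside 35.6% of such probe sets. The count was also 12 of 20 around Abcg1 on chromosome 17 and 10 of 20 around Abcc3 on chromosome 11. It ran from 1 (Abcc4) to 8 (Abcc2) around the other genes of the 10. These counts are as deposited. The median differences around Abca1, Abcg1 and Abcc3 were 0.82, 0.55 and 0.50, or 0.37, 0.12 and 0.07 after quantile normalization. Nipsnap3b, directly next to Abca1, read 8.40 (MOCK), 8.08 (WT), 11.13 (clone 1) and 9.97 (clone 2), and Slc44a1, a choline transporter 2 genes to the other side, read 8.01, 7.64, 10.57 and 9.17.

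Abcg2 had few expressed neighbours. The 5 measured genes on one side were vomeronasal receptors, and only Tigd2 of the 10 nearest had signal, at 8.07 (MOCK), 7.48 (WT), 8.58 (clone 1) and 9.04 (clone 2). Herc3, directly next to Abcg2, read 5.35, 5.71, 5.39 and 6.16. The 10 nearest genes with signal on each side had a median of 0.45 log2 units (0.08 quantile-normalized), and 6 of 20 had both clones above both controls. For the other genes of the 10 the same median lay between 0.14 (Abcc4) and 0.82 (Abca1).

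**Figure D4:**
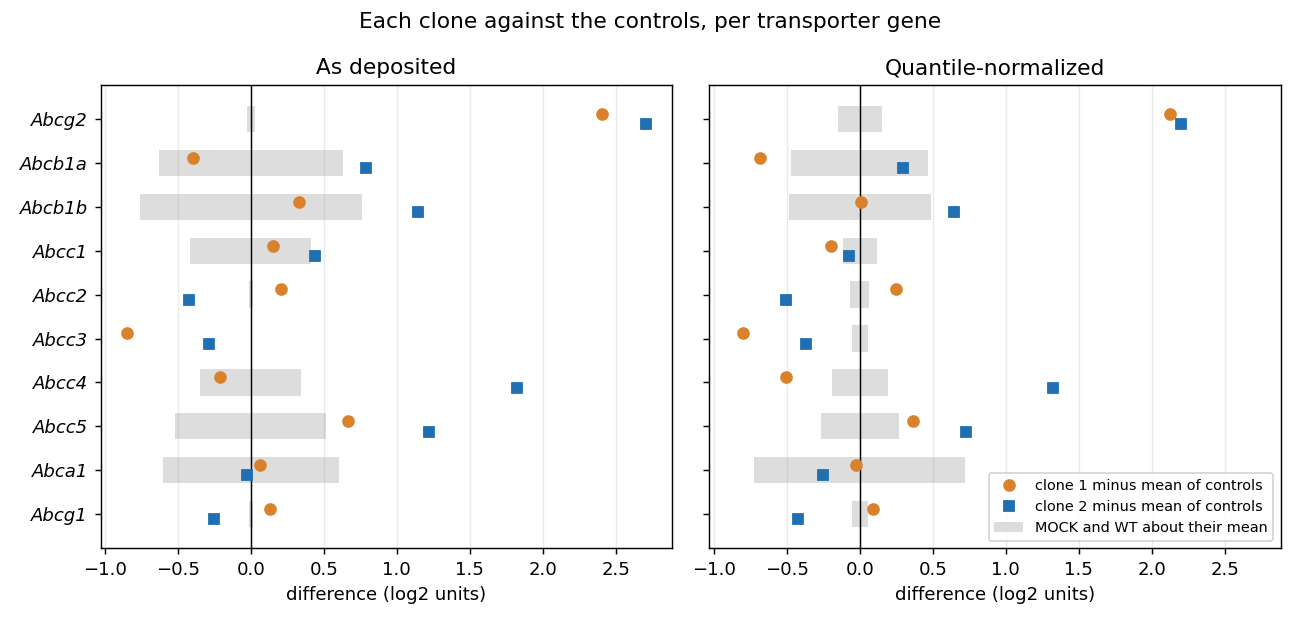
Difference of clone 1 (circles) and clone 2 (squares) from the mean of the controls in log2 units, as deposited and quantile-normalized, with grey bars that span MOCK and WT. Abcg2 lies 2.40 and 2.71 to the right as deposited, the clones of Abcc4 part at -0.21 and 1.82, and those of Abca1 fall within the bar.

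The rest of the ABC superfamily gives the range in which these genes sit. Of 43 further ABC genes listed, 41 were measured, 0 were called by limma in either direction, and 6 had an unadjusted p under 0.05 (q 5), beside 8.75% of all probe sets (q 8.92%). Their median difference was 0.13 log2 units (q 0.01), beside 0.18 over all probe sets (q -0.02), and 17 of the 41 had signal on at least 1 array. The 10 genes had a median of 0.25, or -0.13 after quantile normalization. Abcg2, picked for its high signal in both clones, had the highest difference of all 51 on both scales. Its close relatives Abcg3, Abcg4, Abcg5 and Abcg8 had no signal on any array, with differences between -0.26 and 0.36 (q -0.32 to 0.35).

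Abcb6, a porphyrin transporter, came next at 1.63 log2 units (q 1.23, SE 0.47, limma adjusted p = 0.34), with 7.05 (MOCK), 7.18 (WT), 8.09 (clone 1) and 9.40 (clone 2). Tap1 and Tap2, which carry peptides to MHC class I, differed by 1.62 (q 1.19, limma adjusted p = 0.487) and 1.46 (q 1.06, limma adjusted p = 0.512). Clone 2 stood out, with Tap2 at 10.98 beside 9.03 (MOCK), 8.17 (WT) and 9.15 (clone 1). Abca5, a lysosomal lipid transporter, read 7.21, 7.37, 8.39 and 8.63, and Abca8b 6.92, 6.12, 8.07 and 7.60. Abca9 had signal in clone 2 alone, at 7.42. Without clone 1 limma called Abcb6, Tap1 and Tap2, a count of 3 of 41, where it called 2.38% of all probe sets.

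Abcd2, a peroxisomal carrier of very long chain fatty acids, had the lowest difference, with 7.17 (MOCK), 6.79 (WT), 6.74 (clone 1) and 5.50 (clone 2), a difference of -0.87 (q -1.14). Its relatives Abcd3 and Abcd4 differed by 0.52 (q 0.09) and 0.38 (q 0.07) log2 units. Abce1, Abcf1, Abcf2 and Abcf3, which act on ribosomes and carry nothing, had signal on all arrays, with the highest difference in Abcf2, at 0.94 (q 0.50). In the mitochondrial Abcb8 the arrays read 7.97, 6.99, 7.87 and 8.72, and Abcc10 (MRP7) differed by 0.09, or -0.29 after quantile normalization.

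**Figure D5:**
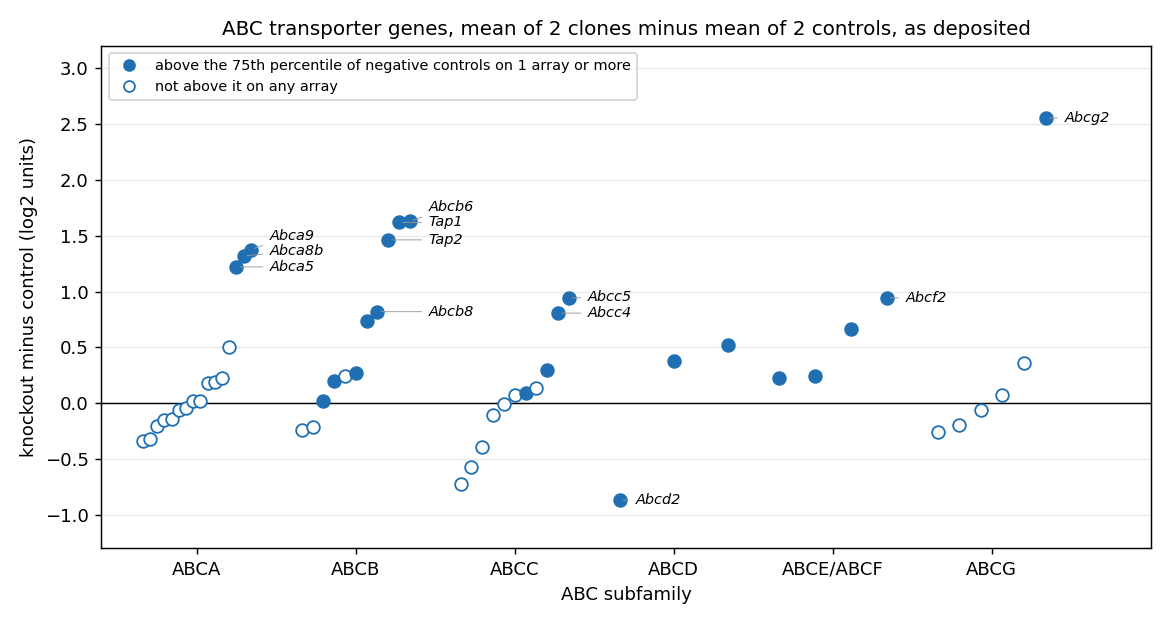
Difference between the mean of the clones and the mean of the controls (log2 units, as deposited) for 51 ABC genes by subfamily; filled points had signal above the 75th percentile of the negative controls on 1 array or more, open points on none. Abcg2 stands at 2.55, above Abcb6 at 1.63, and the other genes of its subfamily lie between -0.26 and 0.36.

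Genes that sense, conjugate or move the same substrates were counted from 10 further lists. Over all 180 listed genes other than the 10, further ABC genes included, limma called 0 in either direction, beside 0.0405% of all probe sets, and 24 had an unadjusted p under 0.05, where 8.75% of all probe sets did. Among 22 measured receptors and transcription factors reported to act on ABC genes, 16 were higher in the knockout (q 10), at a median of 0.36 log2 units (q -0.01). Rxrb, the partner of several lipid receptors, read 7.46 (MOCK), 6.71 (WT), 8.18 (clone 1) and 8.83 (clone 2) (difference 1.42, q 1.05, SE 0.43, limma adjusted p = 0.364). Hif1a, the hypoxia factor, differed by 0.91 (0.41 quantile-normalized), and Nr1i3, the receptor CAR, had signal in WT alone, at 6.50. Ahr, the aryl hydrocarbon receptor, chosen after its value was seen, differed by -0.15 (q -0.51).

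Targets of these factors split. Nqo1, a quinone reductase that both AHR and NRF2 control, read 8.50 (MOCK), 8.40 (WT), 10.12 (clone 1) and 12.14 (clone 2), a difference of 2.68 log2 units (q 2.24, SE 0.57, limma adjusted p = 0.164). The other AHR target chosen by size, Tiparp, differed by -0.17 (q -0.59), and Cyp1a1 (named after its value was seen) had no signal, between 2.50 and 3.72. Of 7 AHR targets 4 were higher (q 4), with a median over the list of 0.31 (q 0.30). On no array was there signal for 5 of the 7. Of 10 NRF2 targets 8 were higher (q 7), with a median of 0.82 (q 0.38). Hmox1, haem oxygenase, read 12.29, 12.28, 12.94 and 14.37, but once quantile-normalized its clone 1 value (12.76) lay below WT (12.91). The cystine carrier Slc7a11 read 11.22, 9.59, 10.93 and 11.82, and MOCK lay within the range of the clones.

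The LXR targets, which share their receptor with Abca1 and Abcg1, had a median of 0.04 with 6 of 10 higher. After quantile normalization the median was -0.19, with 3 of 10 higher, so the direction of the list turned. Of the 10, 5 had no signal on any array. Mylip, which marks the LDL receptor for degradation, read 10.51 (MOCK), 10.77 (WT), 12.05 (clone 1) and 11.28 (clone 2). With quantile normalization its clone 2 value (10.99) lay below WT (11.27). Pltp and Scd1 differed by 0.58 (q 0.15) and -0.31 (q -0.80). Of 11 cholesterol efflux partners 8 were higher, and the median over all 11 was 0.24. After quantile normalization 5 were higher and the median was -0.03, so this list turned as well. Stard3, Npc1 and Npc2, which move cholesterol in late endosomes, differed by 0.67, 0.62 and 0.53. After quantile normalization those were 0.25, 0.22 and 0.08.

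ABCG2 exports porphyrins, so the haem pathway was counted. Of 17 measured genes 15 were higher in the knockout, with a median of 0.54 log2 units, and 10 were higher after quantile normalization, with a median of 0.14. Both clones were above both controls for 10 of the 17, beside 27.8% of all probe sets and 35.6% of those with signal, which 15 of the 17 had. After quantile normalization the count was 7, beside 19.2% of all probe sets. The share among probe sets with signal was not computed on that scale. Cpox and Ppox, the oxidases of the late pathway, differed by 1.32 (q 0.89, SE 0.44) and 1.14 (q 0.71, SE 0.39), with limma adjusted p of 0.415 and 0.42. Cpox read 11.87 (MOCK), 10.85 (WT), 12.43 (clone 1) and 12.94 (clone 2).

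Conjugating enzymes, which make the substrates of the ABCC proteins, were counted next. Of 21 measured 12 were higher (q 11), with a median of 0.24 (q 0.04), and 13 of the 21 had no signal on any array. Gstm2, a glutathione transferase, was high in clone 2 alone, with 6.92 (MOCK), 6.32 (WT), 6.13 (clone 1) and 9.42 (clone 2). Gstm1 read 13.70, 12.42, 14.46 and 13.28, and Gstm3 6.50, 5.70, 7.45 and 6.67. For Gstm3, clone 2 (6.43) lay below MOCK (6.56) after quantile normalization. The Gstm genes are close copies whose signals may be shared.

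Of 23 uptake carriers 15 had no signal on any array. Of the 23, 12 were higher (q 8), with a median of 0.00 (q -0.07). Slco4a1, an organic anion carrier, read 10.49 (MOCK), 10.64 (WT), 10.45 (clone 1) and 8.22 (clone 2), so clone 1 lay level with the controls. Slc29a1 (ENT1), which admits nucleoside drugs, read 9.32, 8.85, 10.85 and 9.60, and Slc31a1, the copper and cisplatin importer CTR1, 11.38, 10.56, 11.83 and 12.03. The clone 2 value of Slc29a1 fell between the controls after quantile normalization (9.28, beside 9.33 in MOCK and 9.26 in WT). Of 7 carriers and vault genes outside the ABC family 5 had no signal on any array. Of the 7, 3 were higher (q 2), with a median of -0.22 (q -0.27). Among them Mvp, the major vault protein, had signal in clone 2 alone (7.20), beside 5.28 (MOCK), 5.56 (WT) and 6.04 (clone 1). The difference of Atp7a turned from 0.34 to -0.04 with quantile normalization.

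In a mixed list on the anchoring and trafficking of ABC proteins, 14 of 17 genes were higher (q 11), with a median of 0.44 (q 0.11). As the list also holds genes of protein removal, Derl1 and Rnf5, the count does not stand for delivery to the membrane. Pim1, a kinase known to phosphorylate ABCG2, read 6.42 (MOCK), 6.50 (WT), 9.36 (clone 1) and 7.996 (clone 2), a difference of 2.21 log2 units (SE 0.47, limma adjusted p = 0.164), or 1.84 after quantile normalization. Its clones did not overlap with the controls, and clone 1 was the highest array, where Abcg2 was highest in clone 2. Derl1, part of the channel that removes misfolded proteins from the endoplasmic reticulum, read 10.30, 10.11, 11.72 and 11.61 (difference 1.46, q 1.04, SE 0.37). Rnf5, a ubiquitin ligase of the same route, differed by 0.88, or 0.48 after quantile normalization. Ezr, Rdx and Msn, the ERM linkers to actin, were named after their values were seen and differed by 0.52, 0.35 and 0.19, or 0.11, -0.14 and -0.25 after quantile normalization.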

How the data were processed

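RNA from 4 MC38 samples was read on 1 Clariom S mouse array each. The Transcriptome Analysis Console made the authors' files, per the submitters' processing notes. The deposited values are taken as log2 signals from their range. Not given in the sources used here were their normalization, filters and genome build and the console's version. Each column matched 1 sample by its name, and 0 were left over.

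The 6640 control features were left out and 22206 probe sets kept. Gene symbols came from the platform annotation, with 1 symbol for 19572 probe sets; a gene's probe set with the highest mean stood for it. limma (3.58.1, R 4.3.3; lmFit, eBayes, no covariate) fitted knockout minus control on all probe sets, with Benjamini-Hochberg adjustment, and was tested on simulated data. SE is the moderated one. With 2 arrays a group an exact permutation test cannot go below p = 0.333, so none was run, and the number of arrays limits the precision. Gene order came from RefSeq (GRCm38.p6), whose gene coordinates were not used otherwise.

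Genes and lists were chosen with earlier results of these data known. The text names the 10 genes, per list the members called and otherwise the largest differences among genes with signal (up to 4 for ABC subfamilies, 3 elsewhere), the 8 genes most like Abcg2, and neighbours. Alternatives were quantile normalization, median centring, filters that kept probe sets above the median or the 25th percentile of mean signal, trend and robust options of eBayes, a floor at the median of the negative controls, all probe sets of a gene, and leaving out each array. Neighbours with signal and the chromosome 14 stretch were added after seeing the data. Sequences came from RefSeq start windows, which 7 of the 10 genes had.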

Additional observations from a re-analysis of the deposited data

How the results depend on the processing

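Limma called 9 probe sets with all arrays, 1 after quantile normalization, 8 with each array centred on its median, 196 when only probe sets above the median of mean signal were tested, 125 when those above its 25th percentile were, 340 with trend and robust, and 0 to 529 with 1 array left out. Of the 10 genes it called 0 as reported and 1, Abcg2, with either filter and with trend and robust; with 1 array left out the count ran from 0 to 1. Of the other ABC genes it called 0 to 3 with 1 array left out and 0 otherwise. Over all 180 listed genes the count was 2 with either filter (Nqo1 and Pim1), 4 with trend and robust (also Ephx1 and Flvcr2, which had no signal on any array), and 0 to 10 with 1 array left out. An array left alone in its group is assumed to vary like the others. The genes and lists were chosen with earlier results of these arrays known, so nothing is read from these calls.

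The difference of Abcg2 stayed between 2.16 and 2.71 log2 units over 11 settings and that of Abcc5 between 0.43 and 1.46. The sign of the difference changed under at least 1 setting for each of the other 8 genes. Abcc4 ran from -0.21 (without clone 2) to 1.82 (without clone 1). For Abcc3 the only change came with the floor at the median of the negative controls (0.01). With each array left out in turn, the difference of Abcc3 stayed between -0.85 and -0.28. More than 1 SD between replicates separated 2 of 106 such values from the reported one, 14 of 120 differences of single arrays and 11 of 143 list medians. When only probe sets above the median of mean signal were kept, a list median covered only the genes left in the list. That of the AHR targets went from 0.31 to 1.26 and that of the non-ABC efflux genes from -0.22 to 0.77. Each of these lists had 2 genes with signal. The medians of the further ABCA and ABCB genes went from 0.02 to 1.32 and from 0.27 to 1.14. Each of the 10 genes has 1 probe set, so taking all of them changed nothing. No paired analysis was possible because the labels number the clones but not the controls. Genes near the negative controls, including the control level of Abcg2, are limited by background.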
